A study of Mus musculus with 2 samples.

Results

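The regions described here are accessible sites inside coding exons of spleen chromatin. The assay was DNase-seq: nuclei are treated with DNase I, which cuts DNA where it is exposed, and the ends it leaves are read. Biological replicates 1 and 2, the 2 libraries of the series, form 1 group from whole spleen of male B6CASTF1/J mice aged 10 days. The strain comes from crossing C57BL/6 with CAST/EiJ mice, so every animal carries a chromosome set of each. The labels number the replicates separately and give them the same donor identifier. The tissue was not sorted, so a site can come from any spleen cell. A site was a stretch of overlapping peaks of both libraries on mm10. It was kept when it lay more than 500 bp from every transcription start site (TSS) of GENCODE release M21 and its midpoint fell in coding sequence (CDS) of a protein-coding gene. The rule gave 1406 coding-exon sites among 73150 sites found in both libraries (1.92%, exact 95% binomial interval 1.82 to 2.02%), or 2.88% of the 48823 sites outside promoters. The sites were chosen by the presence of a peak in both libraries and by its position, so neither is tested here. Read totals were not analysed here, and the depth of the libraries is unknown. Intervals cover counting error only, and sites are not replicates of the animals.

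Most coding exons are packed in nucleosomes, and their bases are read as codons after transcription. Some coding bases are also bound by transcription factors on the DNA, so that the same letters serve a protein and a binding site. A site that DNase I cuts often, with short protected stretches called footprints inside it, is the usual mark of bound protein. CTCF is a zinc-finger protein that binds a long consensus, anchors chromatin loops with cohesin and is made in nearly all cell types. In the spleen of a young mouse, B cells, developing red cells and other blood cells lie side by side. The 6 red cell marker genes and the 6 B cell marker genes checked had a promoter peak in both libraries, and 0 of 6 liver genes did. Of the liver genes, 1 had a promoter peak in at least 1 library. Over all protein-coding genes with CDS, 60.7% had a promoter peak in both.

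Of the 12 strongest coding-exon sites without a near-identical copy elsewhere in the genome, 7 held the CTCF consensus (strength being the geometric mean of the 2 libraries' signals), taken here as CC, any 3 bases, AG, any 2 bases and GGC. They are shown because the same consensus recurs in strong sites of different genes. In the strongest signal quartile, 43.5% of coding-exon sites held the consensus in their central 150 bp. Among other sites outside promoters with signals in that range, 44.0% did. In Tmem95 only 5 of the 12 bases of the consensus are coding, and in the other printed sites all 12 are. Each line is the whole site from the mm10 reference, on a strand that carries the consensus. Capitals mark the match on that strand within the central 150 bp. The Klf1 line holds a further match near its start, outside that window, which is left in lower case. The reference is C57BL/6, so CAST/EiJ alleles are not shown. The sites were chr14:20661061-20661220 (minus strand, Synpo2l), chr8:84903081-84903280 (minus strand, Klf1), chr5:137290801-137291000 (plus strand, Ache), chr14:52008941-52009100 (plus strand, Zfp219), chr11:69876941-69877120 (minus strand, Tmem95), chr6:83107681-83107860 (plus strand, Ccdc142) and chr8:71596021-71596200 (minus strand, Pgls). In every one of these 7 sites the consensus in capitals overlapped a footprint seen in both libraries. Ache also held a match on the minus strand, which is not in capitals and overlapped no such footprint. Over the strongest quartile of coding-exon sites, 95.1% of matches touched one, as did 55.5% of all placements of 12 bp in the central windows.
Synpo2l: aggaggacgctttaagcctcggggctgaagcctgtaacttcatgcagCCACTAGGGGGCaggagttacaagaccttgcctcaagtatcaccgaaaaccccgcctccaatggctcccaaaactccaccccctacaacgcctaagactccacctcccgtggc
Klf1: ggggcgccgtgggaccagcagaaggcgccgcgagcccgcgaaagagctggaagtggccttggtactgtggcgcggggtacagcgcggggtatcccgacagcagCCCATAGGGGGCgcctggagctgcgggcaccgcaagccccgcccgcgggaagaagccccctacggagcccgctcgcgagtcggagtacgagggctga
Ache: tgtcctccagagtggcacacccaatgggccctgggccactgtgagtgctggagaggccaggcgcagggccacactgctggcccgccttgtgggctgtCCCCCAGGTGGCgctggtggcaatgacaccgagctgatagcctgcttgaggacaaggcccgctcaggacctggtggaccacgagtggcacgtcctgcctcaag
Zfp219: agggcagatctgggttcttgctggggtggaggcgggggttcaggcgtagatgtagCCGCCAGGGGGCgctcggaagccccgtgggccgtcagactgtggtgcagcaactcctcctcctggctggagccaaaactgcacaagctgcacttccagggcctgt
Tmem95: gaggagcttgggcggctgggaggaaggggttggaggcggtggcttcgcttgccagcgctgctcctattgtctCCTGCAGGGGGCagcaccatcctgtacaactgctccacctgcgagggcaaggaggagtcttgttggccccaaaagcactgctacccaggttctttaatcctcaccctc
Ccdc142: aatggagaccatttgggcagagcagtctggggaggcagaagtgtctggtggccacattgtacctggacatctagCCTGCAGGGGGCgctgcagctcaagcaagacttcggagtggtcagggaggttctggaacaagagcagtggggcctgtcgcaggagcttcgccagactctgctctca
Pgls: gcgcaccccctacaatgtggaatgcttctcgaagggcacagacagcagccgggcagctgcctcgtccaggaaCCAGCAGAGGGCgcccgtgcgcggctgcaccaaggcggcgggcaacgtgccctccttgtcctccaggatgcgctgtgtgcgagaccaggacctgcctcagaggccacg

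The strongest site lay in Angptl6 (chr9:20878201-20878480, minus strand), and Zfp771 (chr7:127254021-127254280, plus strand) had the second highest signal in replicate 1. Neither held the CTCF consensus in the searched window. Both are printed on the gene's coding strand with the footprints that overlapped between libraries in capitals, as given for replicate 1. In Angptl6, 7 separate footprints are spread over the 280 bp, and in Zfp771, 4 lie in sequence that encodes zinc fingers.
Angptl6: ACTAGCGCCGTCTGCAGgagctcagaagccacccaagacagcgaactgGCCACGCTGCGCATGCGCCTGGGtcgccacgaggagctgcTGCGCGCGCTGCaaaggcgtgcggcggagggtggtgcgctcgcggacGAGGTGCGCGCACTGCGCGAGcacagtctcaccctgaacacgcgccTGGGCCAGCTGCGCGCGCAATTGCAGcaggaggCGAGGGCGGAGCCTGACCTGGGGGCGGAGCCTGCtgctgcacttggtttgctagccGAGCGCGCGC
Zfp771: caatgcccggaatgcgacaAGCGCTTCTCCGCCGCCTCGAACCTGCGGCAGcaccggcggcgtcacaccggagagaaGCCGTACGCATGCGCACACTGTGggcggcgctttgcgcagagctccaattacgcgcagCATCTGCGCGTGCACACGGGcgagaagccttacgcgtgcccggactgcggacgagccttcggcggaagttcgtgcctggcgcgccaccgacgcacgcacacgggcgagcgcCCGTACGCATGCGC

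Spi1 and Spib encode the related blood transcription factors PU.1 and Spi-B. Their sites were chr2:91115161-91115320 (plus strand) and chr7:44528021-44528300 (minus strand). Both had their midpoint in the last coding exon, in the part that encodes the ETS domain, by which these proteins bind DNA. All bases of the Spi1 site were coding and 84.6% of those of the Spib site. In shared footprints, the Spi1 site held consensus matches of CTCF and YY1, and the Spib site held one of RUNX factors. Capitals again mark footprints that overlapped between the libraries. Spi1 had 2 such footprints and Spib had 3.
Spi1: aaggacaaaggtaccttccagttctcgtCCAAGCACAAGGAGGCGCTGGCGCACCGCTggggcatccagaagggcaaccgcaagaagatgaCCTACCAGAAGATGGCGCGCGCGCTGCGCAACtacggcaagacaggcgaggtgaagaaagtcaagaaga
Spib: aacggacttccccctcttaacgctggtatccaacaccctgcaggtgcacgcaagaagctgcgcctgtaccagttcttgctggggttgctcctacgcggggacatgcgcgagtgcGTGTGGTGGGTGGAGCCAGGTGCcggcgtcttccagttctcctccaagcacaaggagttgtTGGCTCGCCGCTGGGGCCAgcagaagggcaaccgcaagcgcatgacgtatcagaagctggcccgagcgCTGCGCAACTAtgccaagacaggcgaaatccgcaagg

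The signal is the deposited height of the strongest peak of a site, in units that compare within a library only. Angptl6, which encodes a secreted angiopoietin-like protein, reached 32.1 in replicate 1 and 10.3 in replicate 2, the highest of all 1406 sites in both. Klf1, a zinc-finger factor that red cell precursors need for adult globin expression, had 13.5 and 6.80 in its coding segment 2 of 3. Synpo2l, which encodes a protein of the muscle Z disc, had 11.8 in replicate 1 and 7.89 in replicate 2. These 3 sites ranked above 92.6% of all sites in both libraries, promoters included, on either signal. Ache, the enzyme that breaks down acetylcholine, had 13.7 and 6.49 in the first of its 4 coding segments. Zfp219, which encodes a zinc-finger protein, had 13.2 and 5.95. Tmem95, which sperm need for fusion with the egg, had 12.2 and 6.43 in segment 5 of 7. Like Angptl6 and Synpo2l, the gene had no promoter peak in both libraries, whereas the other host genes of the 12 strongest sites did. Pgls, an enzyme of the pentose phosphate pathway, had 13.1 and 5.26 in the last of 5 segments. The remaining sites of the 12 strongest were Zfp771 (16.1 and 5.24), Ppp1r18 (12.5 and 6.45), B3gnt9 (15.3 and 5.09), Lrrc45 (14.6 and 5.27) and Ccdc142 (12.7 and 5.66). Their host genes thus include a red cell factor beside genes known for muscle, sperm and general metabolism.

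Across all coding-exon sites the median signal was 0.983 in replicate 1 (quartiles 0.556 and 2.00) and 0.534 in replicate 2 (quartiles 0.348 and 1.02). Intron sites had medians of 0.893 and 0.582. The log2 ratio of coding-exon over intron medians was therefore 0.14 in replicate 1 and -0.12 in replicate 2, so the libraries did not give the same order. Intergenic sites had medians of 0.964 and 0.615, and promoter sites were higher, with 2.62 and 1.26. The ranks of the coding-exon sites were close between the libraries (Spearman's rho 0.912 over 1406 sites, as a description, against 0.922 over all sites). The median log2 ratio of replicate 1 over replicate 2 was 0.89 in coding-exon sites and 0.68 in intron sites. Base composition moved with this ratio. Coding-exon sites had a median GC content of 58.2%, intron sites one of 51.4%. In 4 bins of GC content, bounded by the quartiles of the coding-exon sites, the ratio was 0.53, 0.76, 0.98 and 1.16 in coding-exon sites and 0.55, 0.82, 0.97 and 1.17 in intron sites, from low to high GC. At matched GC content the classes thus differed in this ratio by at most 0.05. In the same bins the median signals of coding-exon sites were below those of intron sites in both libraries. In replicate 1 they were 0.716, 0.836, 1.14 and 1.34 in coding-exon sites and 0.799, 1.07, 1.23 and 1.93 in intron sites. In replicate 2 they were 0.511, 0.498, 0.549 and 0.611 in coding-exon sites and 0.565, 0.603, 0.611 and 0.812 in intron sites.

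**Figure D1:**
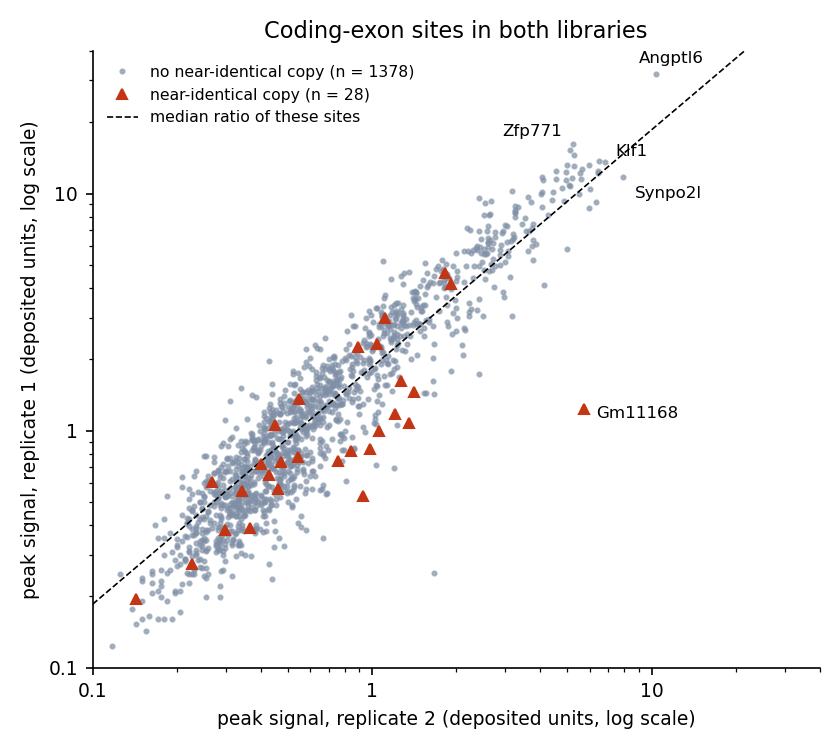
Each point is 1 coding-exon site, with its peak signal in replicate 1 (vertical) and replicate 2 (horizontal), both in deposited units on log axes; red triangles are the 28 sites with a near-identical copy. The dashed line marks the median ratio of the libraries over these sites (log2 0.89). Angptl6 is at the top, and Gm11168 stands far below the line.

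The sites that departed most from the common ratio also differed in GC content. Fgfbp3, which encodes a carrier of fibroblast growth factors, Plvap, a protein of endothelial diaphragms, and Zc3h13, a subunit of the RNA m6A methylation machinery, had the highest log2 ratios among sites without a copy, with 2.24, 2.20 and 2.15, at a GC content of 74.5, 73.5 and 61.5%. Col28a1, a collagen gene, had the lowest at -2.73. D10Wsu102e and Tab3, an adaptor of the TAK1 kinase, followed at -0.92 and -0.90. The GC content of these last 3 sites was 45.0, 45.4 and 47.9%. Their signals in replicate 1 were low, at 0.251, 0.353 and 0.236, above only 2.25, 7.19 and 1.75% of all sites in both libraries. In replicate 2, Plvap and Zc3h13 had 0.427 and 0.339, above 26.8 and 16.1% of these sites, and Fgfbp3 had 1.09, above 65.0%. Whether weak signal or GC content sets these ratios was not tested. With 1 library on each side, these ratios have no replicate check.

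The CTCF consensus was commoner in stronger sites. A match lay within the central 150 bp of 331 of 1406 coding-exon sites (23.5%, interval 21.3 to 25.8%) and of 27.3% of the other sites outside promoters, with both strands searched. Coding-exon sites with a match had a median signal of 1.79 in replicate 1 and 0.829 in replicate 2. Those without a match had 0.829 in replicate 1 and 0.486 in replicate 2. Intron sites differed in the same direction, with 1.44 and 0.842 with a match against 0.791 and 0.532 without. From the weakest to the strongest signal quartile the share of coding-exon sites with a match was 11.1, 17.1, 22.5 and 43.5%. Other sites outside promoters with signals in the same bounds gave 15.8, 19.3, 28.6 and 44.0%. In the strongest quartile the intervals overlapped (38.2 to 48.8% and 43.1 to 44.9%). In the second they overlapped too. In the weakest (8.0 to 14.8% and 15.2 to 16.5%) and the third (18.2 to 27.2% and 27.8 to 29.4%) they did not. At matched GC content (windows between the quartiles of the coding-exon sites) a match lay in 22.5% of coding-exon sites and 23.0% of other sites, whatever their signal.

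**Figure D2:**
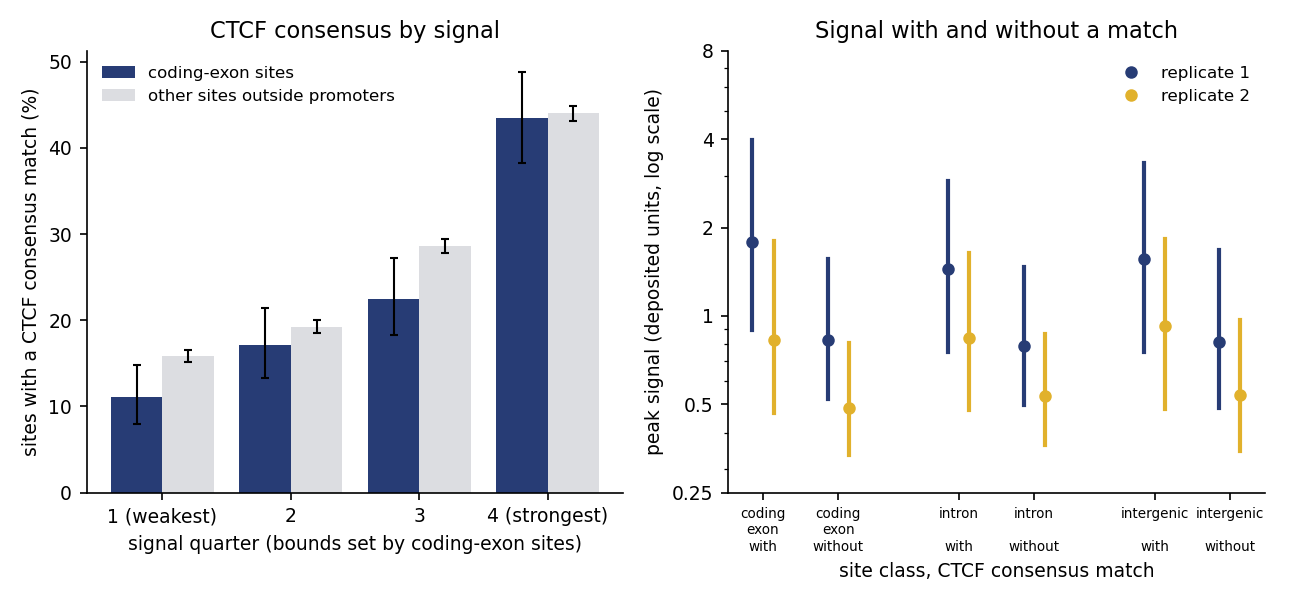
Left, percent of sites with a CTCF consensus match in 4 bins of signal, for coding-exon sites and other sites outside promoters, with exact 95% binomial intervals. Right, median (point) and quartiles (line) of peak signal in each library on a log axis, for sites with and without a match; coding-exon sites with a match had medians of 1.79 and 0.829, those without 0.829 and 0.486.

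The match and the footprints lay together. Of 346 matches in the windows, 281 (81.2%, interval 76.7 to 85.2%) touched a footprint that overlapped between the libraries, and 253 lay wholly inside one. As background, 25.8% of all placements of 12 bp in the windows touched one by the same rule. Within 25 bp of the midpoint, 243 of 269 matches (90.3%) did, against 35.5% of placements. At 51 to 75 bp it was 6 of 21 matches (28.6%, interval 11.3 to 52.2%) and 22.9% of placements. Matches were commoner in stronger sites, and in the strongest quartile 95.1% of matches and 55.5% of placements touched one. Shared footprints that touched a match had a median width of 29 bp in replicate 1 (quartiles 26 and 32), and those without a match 19 bp (11 and 28). Of the matches, 311 of 346 lay wholly inside the coding segment. The rule favours this, since it puts the midpoint in CDS and most matches lay near the midpoint. No background of placements was counted for it.

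Most matches in coding segments lay outside the coding-exon sites. Outside the 500 bp windows around start sites, the longest CDS of each protein-coding gene held 6396 matches, of which 362 (5.66%, interval 5.11 to 6.25%) lay inside a coding-exon site. Any site found in both libraries held 447 of them (6.99%), and any site of either library held 757 (11.8%). The coding-exon sites covered 1.01% of the same coding bases. The matches inside sites ran in the gene's direction in 45.9% of cases (interval 40.6 to 51.1%), against 52.9% of all matches in coding segments (51.6 to 54.1%). In the gene's direction, the match began at the third base of a codon in 62.7% inside sites (54.8 to 70.0%) and in 61.3% of all. Against the gene's direction, the end nearer the start of the gene was at the second base of a codon in 38.8% inside sites (31.9 to 46.0%) and in 45.7% of all (43.9 to 47.5%). Both frames thus differed by less than the counting error of the sites, while the share in the gene's direction was below that of all matches.

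The other 21 consensus sequences searched touched shared footprints less often, from 0% of matches for HNF4 (0 of 1) to 73.9% for NRF1. They are shorter than the CTCF consensus, and the background of placements was counted for 12 bp only, so it does not apply to them. NRF1, a factor of genes for mitochondria and growth, has the consensus GCGC, any base, TGCGC, and 21 coding-exon sites (1.49%) held it, against 0.316% of other sites outside promoters (0.938 and 0.460% at matched GC content). Of its 23 matches, 17 touched a shared footprint. The SP factor sequence GGGCGG, a GC box, was in 14.2% of coding-exon sites and in 9.41% of other sites, and 35.7% of its matches touched one. At matched GC content that order turned, with 10.1% in coding-exon sites and 13.9% in other sites. The E-box CAGCTG, bound by E proteins, was in 19.4 and 13.3%, and at matched GC content in 22.0 and 17.6%. Among sequences of blood factors, those of GATA, AP-1 and NFE2, RUNX and KLF factors were rarer in coding-exon sites. Those of PU.1, ETS factors and E proteins were not, and those of TAL1 and C/EBP factors were close to the share of other sites. CAGATG, bound by TAL1, was in 13.7% against 14.7% of other sites (13.8 and 14.5% at matched GC content). TTGCNNAA, bound by C/EBP factors, was in 5.62% (interval 4.47 to 6.95%) against 6.09% (4.83 and 4.84%). AGATAA, bound by GATA factors, was in 4.27% against 7.87%, and TGANTCA, bound by AP-1 and NFE2, in 2.13% against 5.10%. At matched GC content these were 4.02 and 5.92% for GATA and 1.47 and 4.87% for AP-1 and NFE2. TGTGGT, bound by RUNX factors, was in 10.5% against 15.6% (11.5 and 13.9% at matched GC content), and CCACACCC, bound by KLF factors, in 1.35% against 3.01% (1.88 and 4.28%). The sequences of IRF factors, EBF1 and octamer factors, each in under 1% of coding-exon sites, had lower shares there by both counts. The interval of EBF1 (0.157 to 0.927%) included the 0.913% of other sites. That of NF-kB was in 0.711 and 0.808%, and at matched GC content in 1.21 and 1.00%. GAGGAAGT, bound by PU.1, was in 3.98% of coding-exon sites (interval 3.02 to 5.14%) and 3.60% of other sites. At matched GC content it was in 4.16 and 3.73%, and 2 of its 60 matches touched a shared footprint. CCGGAAG, bound by ETS factors, was in 3.34 and 1.79%, and at matched GC content in 4.02 and 2.69%. Windows of coding-exon sites held a mean of 7.41 CpG dinucleotides, those of other sites outside promoters 3.03.

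Each library had at least 1 footprint in 1196 coding-exon sites (85.1%, interval 83.1 to 86.9%), and in 966 sites a footprint of one library overlapped one of the other. Among other sites outside promoters, 89.4% had at least 1 footprint in each library. The count of sites with overlapping footprints is not given here for other sites. Replicate 1 had a footprint in 93.2% of coding-exon sites and replicate 2 in 88.5%, and 47 sites had none in either. Of the 4775 footprints of replicate 1 in these sites, 43.6% overlapped one of replicate 2, and of the 3523 of replicate 2, 64.3% overlapped one of replicate 1. In intron sites 52.1% of the footprints of replicate 1 did. Signal moved with the footprint share. In bins of signal, from weak to strong, 68.2, 83.5, 89.7 and 98.9% of coding-exon sites had a footprint in both libraries, against 72.8, 87.1, 94.5 and 99.6% of intron sites. Coding-exon sites were thus below intron sites in each bin, by 0.763 to 4.74 percentage points, but the intervals overlapped in all bins but the third.

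Within the sites, footprints were counted at 13.0 per kb of coding bases and 11.1 per kb of non-coding bases in replicate 1, and at 9.58 and 8.29 in replicate 2. The rule puts the midpoint in CDS, and footprints were commonest at the midpoint, so coding and non-coding bases were also set side by side at equal distance from it. Within 25 bp of the midpoint, 20.4% of coding bases and 25.5% of non-coding bases lay in footprints of both libraries. At 26 to 50 bp the shares were 5.75 and 10.2%, at 51 to 75 bp 9.96 and 14.4%, and at 76 to 100 bp 3.69 and 4.44%. At 101 to 150 bp they were 1.66 and 1.55%. Over all these distances together coding bases had the higher share, with 9.74% against 8.15% of non-coding bases, whereas at equal distance non-coding bases had the higher share up to 100 bp. Both kinds of base had less at 26 to 50 bp than at 51 to 75 bp, as did intron sites with 26.2, 7.88, 13.4 and 5.04% over the 4 distances.

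**Figure D3:**
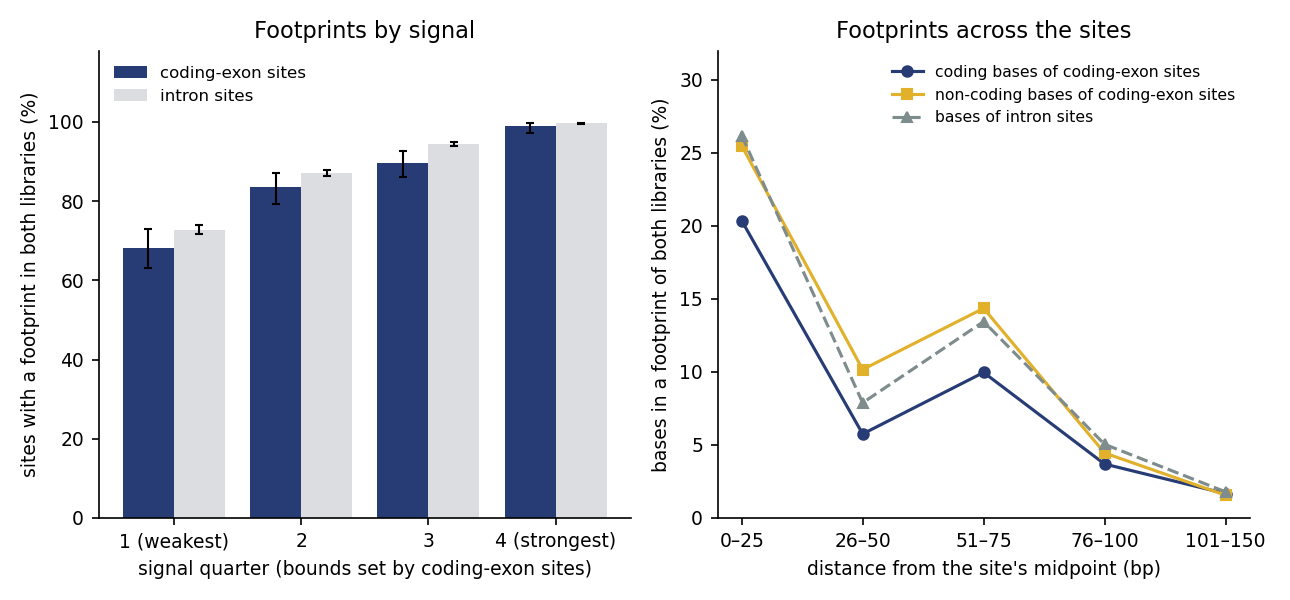
Left, percent of coding-exon and intron sites with a footprint in both libraries in 4 bins of signal, with exact 95% binomial intervals. Right, percent of bases in a footprint of both libraries by distance from the site's midpoint; coding bases of coding-exon sites (20.4% at 0 to 25 bp) lie below non-coding bases of the same sites and intron sites up to 100 bp.

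The sites with the most footprints were wide. Mex3b, which encodes an RNA-binding protein, had 18 in replicate 1 and 7 in replicate 2 over 1871 bp at signals of 0.671 and 0.540. Akt1s1, an inhibitor subunit of the mTORC1 kinase complex, had 12 and 14 over 720 bp at 6.05 and 2.89. Lor, which encodes loricrin of the cornified skin envelope, had 14 and 10 over 1440 bp at 0.791 and 0.419. Abi3 (11 and 10), Slc4a1 (9 and 11) and Btn1a1 (11 and 8) followed. The median width was 208 bp in coding-exon sites and 200 bp in intron sites, and 13.3% against 6.64% reached 400 bp.

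Sites were spread unevenly over the coding segments of genes. Each site was given the rank of its segment in the overlapping transcript with the longest CDS. Of the 1406 sites, 152 (10.8%) lay in a first, 753 (53.6%) in an internal and 342 (24.3%) in a last coding segment, and 159 (11.3%) in genes with a single one. The same ranks held 5.03, 69.7, 17.3 and 8.0% of coding bases outside start-site windows, in the longest-CDS transcript of each gene. Per Mb of coding sequence this gave 107 sites in first, 38.3 in internal, 70.1 in last and 70.5 in single segments. Sites in segments of other transcripts were counted without their bases, so these densities are approximate. The share in first segments depended on the start-site window, at 23.2% with 100 bp and 7.09% with 1000 bp either side. Last segments had the highest median signals, 1.22 and 0.601, and internal segments had 0.904 and 0.515. The segments hit were long, with a median of 173 bp among internal ones against 123 bp over all internal segments, or 158 bp when each base counts equally. Only 467 sites (33.2%) lay wholly inside the segment and 369 passed both of its ends, and the median site had 80.1% of its bases in CDS.

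Sites were denser near start sites, while their signal was similar up to 10000 bp. Between 501 and 1000 bp from the nearest TSS, 348 sites gave 98.7 per Mb of coding sequence. The density was 71.9 at 1001 to 2000 bp, 40.9 at 2001 to 5000 bp, 41.1 at 5001 to 10000 bp and 30.0 beyond. The median signal of replicate 1 lay between 1.02 and 1.08 in the first 4 bins and was 0.761 in the last. Within 2000 bp of a TSS lay 45.2% of coding-exon sites, 24.1% of intron sites and 43.3% of sites in other exon parts. Just inside the rule lay sites in Mid1 at 502 bp, Wrap53 at 504 bp and Phc2 at 504 bp. Just outside it lay Notch4 at 500 bp with signals of 23.6 and 7.47, Fzd7 at 497 bp with 0.604 and 0.356, and Ier5 at 496 bp with 3.57 and 1.51.

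**Figure D4:**
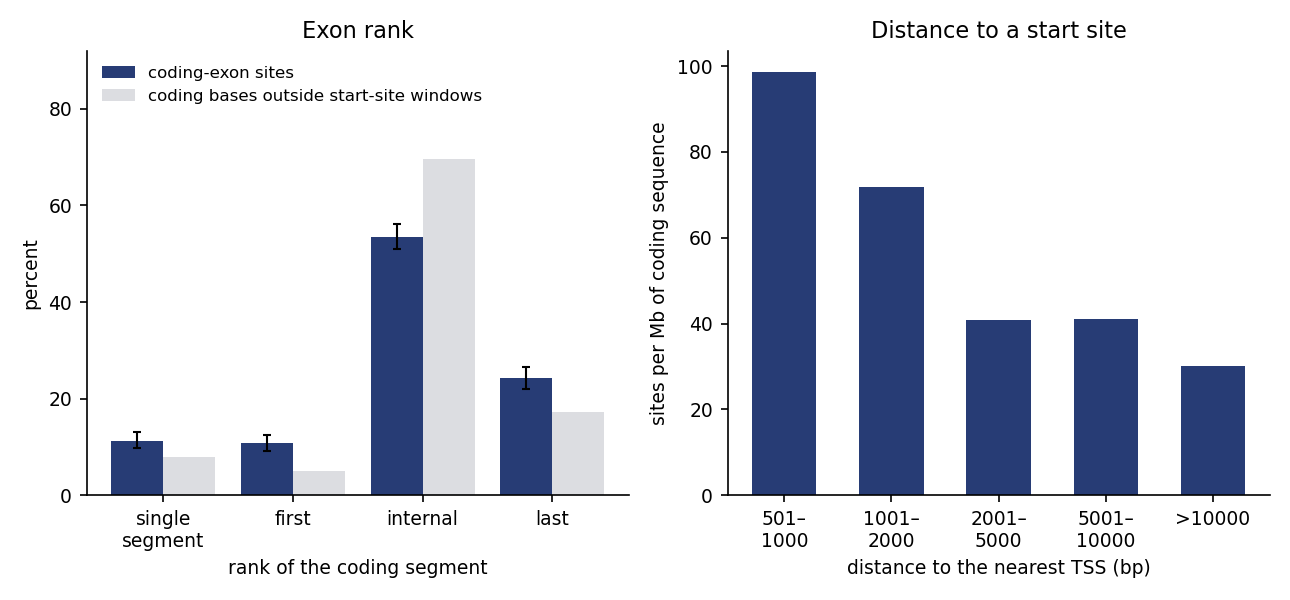
Left, percent of coding-exon sites by rank of the coding segment, with exact 95% binomial intervals. Beside it is the percent of coding bases outside start-site windows, in the longest-CDS transcript of each gene. First segments hold 10.8% of sites and 5.03% of bases. Right, coding-exon sites per Mb of coding sequence by distance to the nearest TSS, from 98.7 at 501 to 1000 bp to 30.0 beyond 10000 bp.

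The sites fell in 1264 genes, which is 5.77% of the 21924 protein-coding genes with CDS, and 1138 of them had a single site. Of these host genes, 955 (75.6%, interval 73.1 to 77.9%) had a promoter peak in both libraries, against 60.7% of all protein-coding genes. No promoter peak in either library was found for 14.6% of host genes and 31.8% of all. Sites whose host promoter was accessible in both libraries had medians of 0.986 and 0.546, and the 338 others had 0.958 and 0.469. Accessible coding exons were thus also found at similar signal in genes with no promoter peak in both libraries.

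Of the 16 gene lists examined, the red cell list had the highest share of genes with a site. Of its 45 genes, 9 did (20%, interval 9.58 to 34.6%), with 12 sites at 154 per Mb of CDS against 39.4 per Mb over all genes. Beside Klf1, the sites of Xpo7, a nuclear export receptor of maturing red cells, had 3.86 in replicate 1 and 2.95 in replicate 2. Icam4, a red cell adhesion molecule, had 1.66 and 0.766. Tal1, a basic helix-loop-helix factor of early blood cells, had 1.62 and 0.724 in its first coding segment. Sites in Urod, Slc4a1, Nfe2 and E2f2 had signals of 0.488 to 0.810 in replicate 1. Slc4a1, the band 3 anion exchanger of red cells, held 4 of them in segments 6, 8, 9 and 16 of 19, with signals between 0.585 and 0.810. These 4 sites were 360 to 1073 bp wide, and 32.1 to 64.4% of their bases were coding. Those in segments 6 and 8 were book-ended, and that in segment 9 ended at chr11:102357737, just before the next at chr11:102357763. The 154 per Mb counts these neighbours apart. The median signals of the red cell sites were 0.731 in replicate 1 and 0.521 in replicate 2, against 0.983 and 0.534 over all coding-exon sites. The promoters of 95.6% of the red cell genes were accessible in both libraries. In bulk tissue, more cells of a type and more accessibility per cell cannot be told apart.

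The lists of other blood cells had fewer sites. Of 44 B cell genes 4 had one (9.09%, interval 2.53 to 21.7%), namely Spib (3.15 and 1.24), Dok3 (0.784 and 0.494), Bach2 (0.660 and 0.394) and Irf4 (0.724 and 0.339). Of 42 myeloid and platelet genes 2 did, Spi1 with 4.12 and 1.59, and Itgax, the integrin subunit CD11c, with 2 weak sites of at most 0.585. Of 38 T cell and NK genes only Il2rb, the beta chain of the interleukin-2 receptor, had a site, at 0.495 and 0.289. The intervals of these 3 lists include the 5.77% of all genes.

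Among gene families taken by symbol, homeobox, Sox, Fox and related developmental factors had sites in 22 of 153 genes (14.4%, interval 9.24 to 21%), at 127 per Mb. Nkx2-2, a homeobox factor of the neural tube and pancreas, led them with 3.38 and 1.85 in a last segment. Sox8 had 3.38 and 1.29, and Foxj2 had 2.00 and 1.08. Chromatin regulators had sites in 13 of 88 genes (14.8%), led by Kmt2a, a histone H3 lysine 4 methyltransferase, with 4.76 and 2.51. Per Mb of CDS, however, chromatin regulators had 36.9 sites, near the 39.4 of all genes. Kinesins, dyneins and myosins likewise had 14 of 111 genes (12.6%) but 29.7 sites per Mb. Keratins had 7 of 53 genes, and zinc-finger genes had 22 of 468 (4.70%). Olfactory and vomeronasal receptors had 2 of 1464 genes (0.137%), and ribosomal proteins had 1 of 101, the muscle paralogue Rpl3l. The lists were not tested for enrichment.

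**Figure D5:**
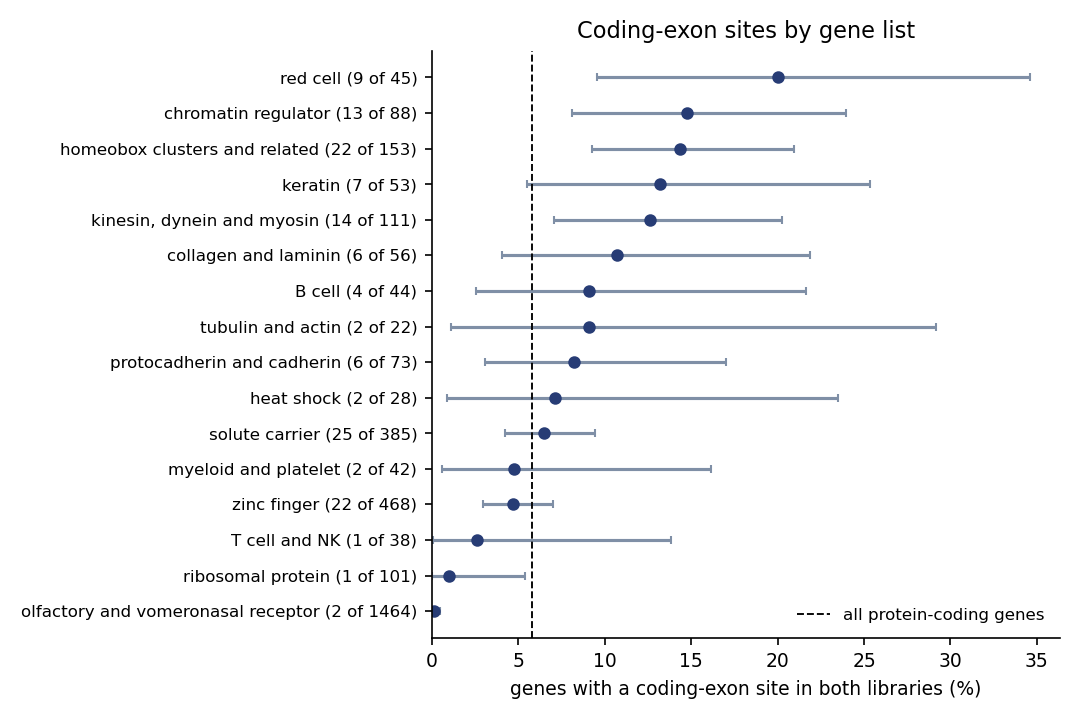
Percent of genes of each list with at least 1 coding-exon site in both libraries, with exact 95% binomial intervals; the dashed line is 5.77%, the share over all protein-coding genes. Red cell genes are at 20% and olfactory and vomeronasal receptors at 0.137%.

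A few genes held several sites. Cep250, a centrosome linker protein, had 4, at signals of 0.518 to 2.76 in replicate 1. F12, coagulation factor XII, had 3, the strongest at 11.6 and 5.19 in its last segment, while its promoter was not accessible in both libraries. The F12 site in segment 8 of 14 (3.19 and 1.51) held a CTCF match in a shared footprint. Rimbp3, a single-segment gene of sperm head shaping, had 3, of which 2 held a CTCF match in a shared footprint (4.33 and 1.81, and 9.98 and 4.04). Dst, the cytolinker dystonin, had 3 in segments 39, 56 and 91 of 103. The strongest of them, in segment 56 (6.5 and 2.60), and that in segment 39 (2.02 and 0.800) also held such a match.

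Near-identical copies elsewhere in the genome were found for 28 sites (1.99%, interval 1.33 to 2.87%), at 95% identity or more over at least 80% of the site. Reads of such sites can fall on either copy, and how the authors assigned them is not stated here. Their median signals were 0.831 and 0.800, and sites without a copy had 0.983 and 0.532. The median log2 ratio of replicate 1 over replicate 2 was 0.41 with a copy and 0.90 without. Gm11168 stood apart at 1.23 in replicate 1 and 5.72 in replicate 2, and it had 163 copies. All 4 sites of Mid1, a microtubule-bound ubiquitin ligase gene at the end of the X chromosome, had a copy in Mid1-ps1 on the Y. Their log2 ratios of replicate 1 over replicate 2 were -0.80, -0.23, 0.05 and -0.08. Selenbp2 (4.61 and 1.82) was the strongest site with a copy by the geometric mean, and that copy lay in Selenbp1. Btg1, an antiproliferative gene, followed with 4.16 and 1.92, and its copy was a processed pseudogene on X. The best copy lay in CDS for 13 sites, in a pseudogene for 10 and in another site found in both libraries for 6.

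The related genes Clca3a1, Clca3a2 and Clca3b, of the calcium-activated chloride channel regulator family, each had a site in segment 13 of 14. The best copies of Clca3a2 and Clca3b lay in the site of Clca3a1, and that of Clca3a1 in the site of Clca3a2. Clca3b had 2.97 in replicate 1 and 1.11 in replicate 2, Clca3a1 had 2.31 and 1.04, and Clca3a2 had 1.06 and 0.448. The 166 bp that the 3 sites share without a gap are shown to let the copies be compared, on the minus strand of mm10, at chr3:144736961-144737126, chr3:144801987-144802152 and chr3:144825255-144825420. Capitals mark bases that differ from Clca3a1. Clca3a2 differs at 3 positions and Clca3b at 16, so 98.2 and 90.4% of bases are equal. The copy search aligned 94.4% of the Clca3b site at 95.9% identity, and that alignment left out the start of the printed stretch.
Clca3a1: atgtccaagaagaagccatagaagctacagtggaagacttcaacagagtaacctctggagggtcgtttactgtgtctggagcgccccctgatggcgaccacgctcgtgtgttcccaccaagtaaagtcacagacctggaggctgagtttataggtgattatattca
Clca3a2: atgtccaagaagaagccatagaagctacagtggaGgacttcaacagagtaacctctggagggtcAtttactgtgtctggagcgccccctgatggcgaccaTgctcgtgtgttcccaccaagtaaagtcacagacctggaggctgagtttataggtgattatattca
Clca3b: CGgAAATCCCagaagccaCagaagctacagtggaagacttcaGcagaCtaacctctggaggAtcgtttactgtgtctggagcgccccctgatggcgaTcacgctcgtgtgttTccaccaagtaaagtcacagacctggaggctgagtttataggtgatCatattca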

How the data were processed

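DNase-seq was deposited for 2 spleen libraries, per library 2 peak lists, footprints and false discovery rates, on mm10 per the labels. The sources used here do not give the aligner or the callers. The peak signal, as deposited, was used within a library. The footprint score, as deposited by the authors, was the constant 0.01, so only footprint positions were used. The p-value files, as deposited, held false discovery rates of the cut rate. Of the 1406 coding-exon sites, 871 reached below 0.001 in both libraries, and the same count is not given for other sites. The longer peak lists (130476 and 95847 peaks) were used, with GENCODE M21 and the GRCm38 genome.

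Peaks overlapping by 1 bp were merged into 146575 sites, and book-ended peaks were not. A site took its strongest signal per library. Copies were searched for coding-exon sites only, with blastn 2.17.0 (word size 20). The 22 consensus sequences were searched in the central 150 bp on both strands. Shares have exact (Clopper-Pearson) 95% intervals. Python 3.11.15, pandas 2.3.3, scipy 1.17.1, pysam 0.24.0 and bedtools 2.31.1 were used. Merging, classes and footprint counts were checked on simulated intervals.

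The sites named were the 12 strongest (by the geometric mean of both signals) without and the 6 strongest with a copy, those of the 6 genes with most sites, the 6 with most footprints, the strongest per gene list, 3 on each side of the start-site window, and 3 at each end of the ratio between libraries. Sites of the blood cell lists, Sox8, Foxj2, Clca3a2 and the genes whose sequences are printed beside these were added after their values were seen, as were the CTCF counts by signal and codon. The sites, 16 gene lists and sequences were chosen with earlier results of these data known. The values of 1 red cell gene are not reported here. With 1 group there was no contrast and no test. Alternatives were another peak list, overlap rule, start-site window, CDS rule, transcript choice, copy threshold and signal minimum, autosomes, and leaving out each replicate.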

Additional observations from a re-analysis of the deposited data

How the results depend on the processing

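The 7 main values were recomputed under 81 alternatives in all, and 59 stayed within 1.5 times (counts), the standard deviation between the libraries (signals) or the 95% interval (shares). For the median signal this deviation includes the difference in scale between the libraries. It therefore does not measure variability between replicates, and the 7 of 11 alternatives that stayed within it are no check of that value. The number of sites was 849 with the shorter peak lists and 462 with signals at or above the median in both libraries. Replicates taken alone gave 1913 to 4290 sites. The median signal averaged over the libraries, used only to set alternatives side by side because the units compare within a library, was 0.758, and it was 1.20 with the shorter lists and 2.16 above the median. Replicates alone had medians of 0.413 to 0.431, each in its own units. The log2 ratio over intron sites, 0.01, ranged from -0.34 to -0.13 in replicates alone. The share with a footprint in both libraries, 85.1%, was 90.8% with the shorter lists, 88.9% with reciprocal overlap, 87.9% and 78.8% with start-site windows of 1000 and 100 bp, and 96.1% above the median signal. With replicates alone the quantity is the share with a footprint in that library, 80.1 to 82.6%. First coding segments, 10.8%, held 7.09% with the 1000 bp window and 23.2% with the 100 bp window. Last segments, 24.3%, held 27.5% and 18.8% with these windows and 29.4% above the median signal. Near-identical copies, 1.99%, were 4.34% at 90% identity over 50% of the site and 1.14% at 98% identity over 90%. The cause was not tested. No paired analysis was possible because there is 1 group. With 2 libraries of unknown depth, sites of replicate 1 alone (2779, median signal 0.315) and of replicate 2 alone (434, 0.281) cannot be told from sites near the detection limit of the other library.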

Other observations

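Coding-exon sites found in a single library made up 6.25% of sites of replicate 1 alone outside promoters (2779 of 44449) and 2.64% of those of replicate 2 alone (434 of 16443), against 2.88% of sites in both. Their share was thus highest where only replicate 1 had a peak, and intron sites made up 45.3, 50.8 and 51.3% of the same sets. Coding-exon sites had a peak of the shorter list in both libraries in 58.5% of cases, against 64.4% of other sites outside promoters. The CTCF consensus was held by 26% of sites in internal, 24.6% in last, 18.9% in single and 13.8% in first coding segments. The rule on start-site windows left out 1678 sites whose midpoint lay in CDS, with median signals of 1.37 and 0.708.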
